A study of Rattus norvegicus with 15 samples.

Results

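Genes of the proteasome and of ubiquitin transfer and removal were compared between neurons of the rat substantia nigra pars compacta (SNc) and of the ventral tegmental area (VTA). The members were chosen by name: genes with a single symbol in the platform annotation that starts with Psma, Psmb, Psmc, Psmd, Psme, Ube2, Uba, Usp or Fbxo. There were 48 such genes among the 4736 genes that the array annotation names with a single symbol, covered by 76 of its 8799 probe sets. Each gene is represented by its brightest probe set, by the mean of the 15 arrays. Another 7 probe sets whose symbols match but that carry several symbols, among them those of Psmb6, Psma3 and Psme3, were left out by this rule.

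The study, titled for Parkinson's disease, has 8 arrays of SNc neurons and 7 of VTA neurons, each from total RNA of laser-captured cells. Arrays are named by the replicate number of their label, which for VTA skips 7. The labels give no strain, sex, age, treatment or number of animals, do not say how neurons were recognised, and do not tie an array to an animal. What the p-values measure is thus only how far these arrays scatter, which may in part be technical. In captured tissue, fewer cells of a type and less RNA per cell cannot be told apart.

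Cells tag proteins for destruction with ubiquitin. An activating enzyme passes ubiquitin to a conjugating enzyme (Ube2 genes), and a ligase, often one that finds its target through an F-box protein (Fbxo genes), attaches it to the target. Ubiquitin-specific proteases (Usp genes) remove it. Tagged proteins are unfolded by the cap of the proteasome, a ring of ATPases (Psmc genes) with further subunits (Psmd genes), and cut inside its core of alpha and beta rings (Psma and Psmb genes). Activators (Psme genes) can take the place of the cap. In dopamine neurons the pathway is studied because inherited parkinsonism can arise from loss of a ubiquitin ligase, and because alpha-synuclein deposits contain ubiquitin.

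Values are deposited signals, given on their linear scale as mean ± SD (n = 8 for SNc, n = 7 for VTA). A difference is the SNc level minus the VTA level in log2(signal + 16), fitted with limma, with standard error (SE) and with p adjusted over all 5244 probe sets tested. The threshold was an adjusted p of 0.05. The added 16 makes the differences of dim genes smaller than they are on the plain log2 scale. Of the 48 members, 43 were tested. The other 5, Fbxo30, Ube2d2b, Ube2g2, Ube2h and Ube2m, had mean signals from 10.8 to 24.0 and fell among the 40% of probe sets with the lowest means, below a signal of about 26.3. Without that filter their differences ran from -0.17 to 0.35, with adjusted p from 0.311 to 0.920.

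All 8 dopamine neuron markers examined, among them Th and Slc6a3, were above that level in both regions. The summed signal of these markers was 24324 to 31321 in SNc and 20588 to 29639 in VTA. Single markers went both ways, with 4 positive and 4 negative differences and 0 past the threshold. Slc6a3 had the largest positive difference, 0.34, and Nr4a2 the largest negative, -0.65. VTA 5 and VTA 8 had the lowest median correlation with the other arrays, at 0.910 and 0.919, against 0.926 to 0.941 for the rest, and the counts of members and of the wider list past the threshold are also given without them.

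Of the 43 members tested, 2 were higher in SNc and 0 higher in VTA. They were the F-box genes Fbxo21 and Fbxo2. That is 4.65% of the members, beside 2.18% of all 3216 genes tested by their representative probe set, and for genes higher in SNc 1.03%. An unadjusted p under 0.05 was seen in 3 members, or 6.98%, where all genes gave 15.5%. The third of these was the cap subunit Psmc3, so in the core, the activators, the conjugating and the removing enzymes 0 members had an unadjusted p under 0.05. Fbxo21 was the only member whose SNc and VTA arrays did not overlap, which is 2.33% of members beside 0.871% of all genes. Members differed between the regions by a median absolute log2 difference of 0.16, and all genes by 0.18. Without VTA 5 and VTA 8 together the count of members was 1, Fbxo21.

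**Figure D1:**
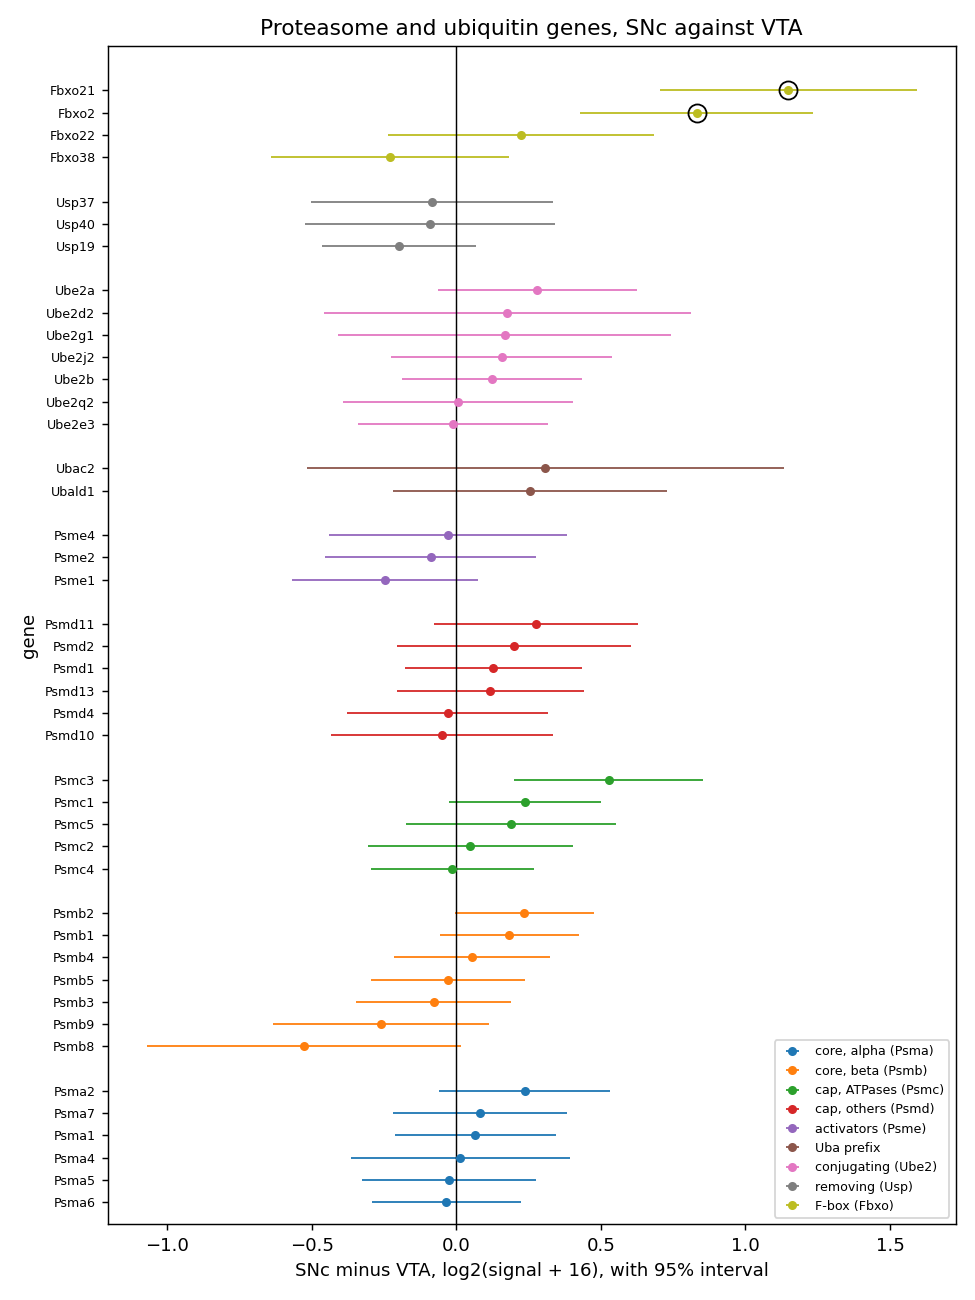
Log2 difference, SNc minus VTA, on the log2(signal + 16) scale for each of the 43 members tested (points) with its 95% interval (lines), coloured by class. Circled points, Fbxo21 at 1.15 and Fbxo2 at 0.83, passed the threshold; most core subunits lie close to 0.

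The 100 bases that precede the start of the genes on which the results turn are shown 5′ to 3′ on the gene's strand, from RefSeq for build GRCr8. An entry was found for 47 of the 48 members. Capitals mark 3 motifs searched on both strands: TGACNNNGC, the core of the antioxidant response element that the factors Nfe2l1 and Nfe2l2 bind, a run of GAAA, 2 bases of any kind and GAAA again, the element of interferon-induced genes, and CCAAT, a common promoter box. The first pair are the F-box genes that passed the threshold (Fbxo21 at chr12:44266036-44266135, minus strand; Fbxo2 at chr5:163875979-163876078, plus strand). They hold none of these letters in the window.

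Fbxo21: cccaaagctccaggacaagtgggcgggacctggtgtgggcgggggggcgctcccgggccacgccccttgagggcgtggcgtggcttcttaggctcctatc

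Fbxo2: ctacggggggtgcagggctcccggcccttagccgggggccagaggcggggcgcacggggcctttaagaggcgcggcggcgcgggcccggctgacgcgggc

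Psmc3, the cap ATPase with the largest positive difference in the core and cap, is shown with its CCAAT box, 16 bases before the start (chr3:97487543-97487642, plus strand). Psmb2 and Psmb5 are the core subunits with the antioxidant element, which begins 68 and 60 bases before the start (Psmb2 at chr5:144254958-144255057, plus strand; Psmb5 at chr15:32047380-32047479, minus strand). In Psmb2 a CCAAT box overlaps it by 1 base.

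Psmc3: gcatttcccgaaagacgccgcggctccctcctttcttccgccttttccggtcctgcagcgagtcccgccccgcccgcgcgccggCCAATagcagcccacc

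Psmb2: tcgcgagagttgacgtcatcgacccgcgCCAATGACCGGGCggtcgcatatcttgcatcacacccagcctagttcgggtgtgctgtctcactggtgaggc

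Psmb5: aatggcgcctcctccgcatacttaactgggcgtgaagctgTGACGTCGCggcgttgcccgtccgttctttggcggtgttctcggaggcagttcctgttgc

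Psmb8 and Psme2 are shown for the interferon-induced subunits. Of Psmb8, Psmb9, Psme1 and Psme2, 1 held the interferon element in the 250 bases searched. That was Psme2, which has the interferon element 53 bases before its start (chr15:33052752-33052851, minus strand), and Psmb8 a CCAAT box on the other strand (chr20:4657032-4657131, minus strand).

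Psmb8: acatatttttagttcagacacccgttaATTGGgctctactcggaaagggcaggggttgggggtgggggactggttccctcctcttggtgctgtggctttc

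Psme2: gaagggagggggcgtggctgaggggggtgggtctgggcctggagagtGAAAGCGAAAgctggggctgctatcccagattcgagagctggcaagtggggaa

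Within the 250 bases before the start, CCAAT was found in 13 of 23 core and cap promoters, or 56.5%, and in 34.3% of 27457 promoters in the table. The antioxidant element was found in 3 of the 23, beside 10.2% of all promoters, and the interferon element in 2, the constitutive subunits Psma4 and Psmb3, or 8.70%, beside 3.29%. The antioxidant element was also found in 3 of 11 conjugating enzymes, or 27.3%, namely Ube2d2, Ube2g2 and Ube2q2. None of the 3 motifs was found in the promoters of Usp19, Usp37 and Usp40. GC content differs between these groups, with a median of 55.6% in core and cap promoters, 71.2% in those of conjugating enzymes and 52.0% in all promoters. These are matches of letters and show no binding.

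The core of the proteasome was measured through 6 alpha and 7 beta subunits, and 0 of the 13 passed the threshold. Their median difference was 0.01, with 7 positive and 6 negative, and all genes tested had a median of -0.04. The sign of that core median is not stable: it was -0.06 after quantile normalization and -0.03 when the probe sets of each gene were averaged, and it was also negative without SNc 2, SNc 3, SNc 6 or VTA 3. The core subunits had a median SD within regions of 0.21 on the log2 scale, where all genes had 0.36. Most core subunits are bright. The dim subunits Psmb8 and Psmb9 had an SD of 0.56 and 0.34, and the bright Psma4 had 0.35. The part of brightness in this scatter was not tested.

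Among the alpha subunits, which form the outer rings and the gate of the core, Psma2 had the smallest p. Its signal ran from 1555 to 2200 in SNc, with a median of 1724, and from 1189 to 1899 in VTA, with a median of 1451. The SNc arrays lay higher on the whole, but only SNc 7 and SNc 8 were above every VTA array. The difference was 0.24 (SE 0.14, adjusted p = 0.446), and the other probe sets of Psma2 gave 0.21 and 0.26. Psma7 differed by 0.08 (SE 0.14). The remaining alpha subunits, Psma1, Psma4, Psma5 and Psma6, lay between -0.03 and 0.07.

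Of the beta subunits, Psmb2, a structural subunit without a cutting site, was 954 ± 63.8 in SNc and 811 ± 97.5 in VTA. All VTA arrays except VTA 2 were below the lowest SNc array. The difference of 0.24 (SE 0.11) missed the threshold (adjusted p = 0.331). Psmb5, which carries the chymotrypsin-like site, ran from 1665 to 2557 in SNc and from 1832 to 2577 in VTA, so the regions overlapped throughout, with a difference of -0.03 (SE 0.13) and a 95% interval from -0.30 to 0.24. Psmb1, Psmb3 and Psmb4 lay between -0.08 and 0.18. For the 11 core subunits other than Psmb8 and Psmb9, the 95% intervals together reached from -0.36 to 0.53, so a difference larger than these bounds lies outside every interval.

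The beta subunits Psmb8 and Psmb9 replace constitutive subunits after interferon stimulation, forming the immunoproteasome, and Psme1 and Psme2 encode the alpha and beta chains of its activator PA28. All 4 had negative differences, with a median of -0.25, and 0 passed. A negative sign was common: 44.4% of all genes tested were positive. Among the dimmest 1072 genes, where Psmb8 and Psmb9 fall, 34.4% were positive. Psme2 falls in the middle 1072, with 41.1% positive, and Psme1 in the brightest 1072, with 57.6% positive. Psmb8 ran from 12.0 to 53.6 in SNc, with a median of 21.0, and from 16.7 to 87.7 in VTA, with a median of 48.0. VTA 3, VTA 5 and VTA 8 lay above every SNc array, VTA 1 and VTA 4 lay within the lower part of the SNc range, and the regions overlapped. The difference was -0.53 (SE 0.26, adjusted p = 0.338), with a 95% interval from -1.07 to 0.02.

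Psmb9 was 36.7 ± 13.4 in SNc and 46.5 ± 12.1 in VTA, a difference of -0.26 (SE 0.18), and its second probe set gave -0.44. Psme1 was 735 ± 161 in SNc and 869 ± 145 in VTA, with 4 SNc arrays below every VTA array. It differed by -0.25 (SE 0.15, adjusted p = 0.474) by its representative probe set and by -0.51 by another from the same transcript. Psme2 differed by -0.09 (SE 0.17), and by 0.005 when arrays were centred on their medians. Psme4, the nuclear activator PA200, differed by -0.03 (SE 0.20).

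In the rat gene table Psme1 and Psme2 are separated by 1 gene, Emc9, and Psmb8 and Psmb9 by 1 gene, Tap1, a peptide transporter of antigen presentation. Of 7 microglia and immune markers on the array, 5 fell below the filter, including Cd74, Aif1 and Csf1r. The summed signal of the 7 was 104 to 196 in SNc and 121 to 227 in VTA. Summed oligodendrocyte markers ran from 5512 to 9772 in SNc and from 7868 to 11545 in VTA, with 5 of 6 markers negative. Vessel and blood markers summed to 249 to 524 in SNc and 340 to 1430 in VTA, with all 4 tested markers negative and a median of -0.24. Astrocyte markers summed to 2611 to 3689 in SNc and 2448 to 5025 in VTA, with 4 of 6 tested markers negative and a median of -0.21. The part of any of these in the values of the 4 subunits was not tested.

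**Figure D2:**
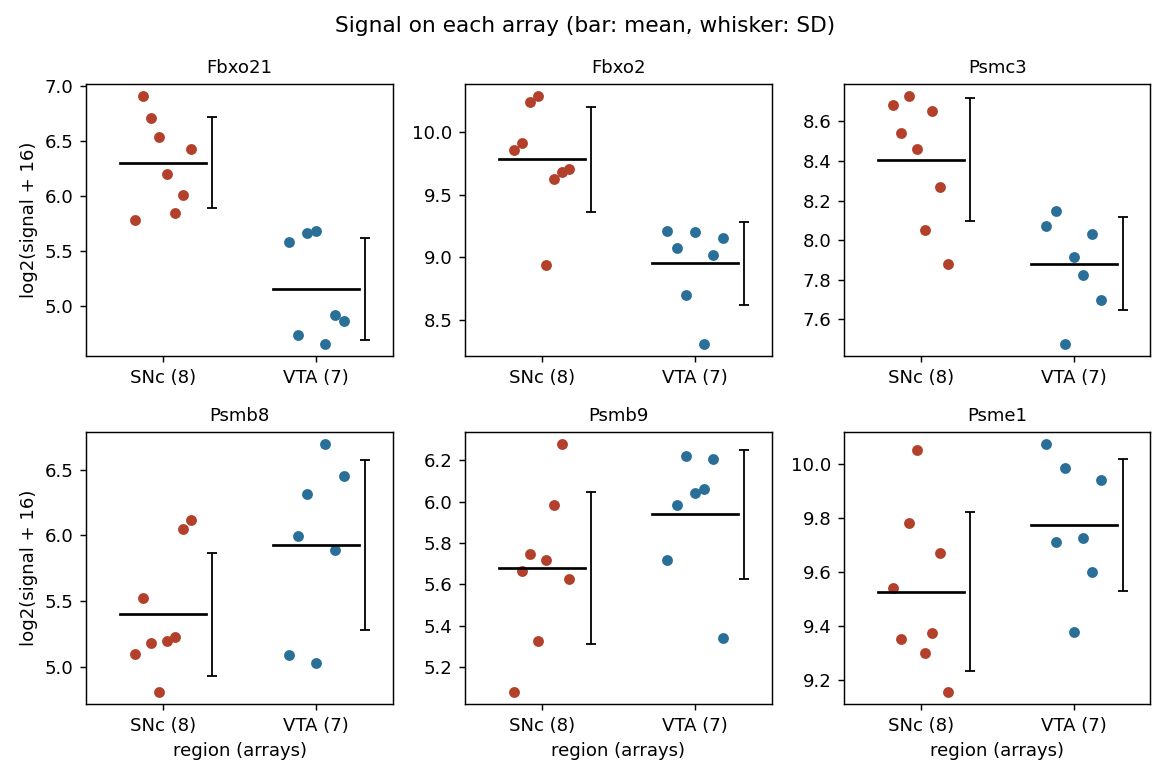
Signal of 6 members on each array, as log2(signal + 16), with SNc (8 arrays) and VTA (7 arrays) side by side; lines are means and whiskers SD. Fbxo21 separates the regions, Fbxo2 and Psmc3 overlap in a few arrays, and Psmb8, Psmb9 and Psme1 overlap broadly with lower SNc means.

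The cap, which recognises and unfolds tagged proteins, had positive differences in 8 of 11 subunits and a median of 0.13, with 0 past the threshold. The cap median stayed positive in every alternative, from 0.08 to 0.22. Core and cap genes are mostly bright, and bright genes as a whole leaned towards SNc. In the brightest 1072 of the 3216 genes, with mean signals from about 219 upwards, the median difference was 0.05 and 57.6% were positive, while the dimmest 1072 had a median of -0.10. The 20 core and cap members among the brightest had a median of 0.10, with 15 positive.

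Psmc3, an ATPase of the ring, had the largest difference of the cap. It ran from 219 to 408 in SNc, with a median of 346, and from 162 to 268 in VTA, with a median of 225. Of the 8 SNc arrays, 6 lay above every VTA array, and SNc 5 and SNc 8 lay within the VTA range. Psmc3 was 1.44 times as high in SNc by the fit (log2 difference 0.53, SE 0.16) and missed the threshold (adjusted p = 0.0906). It passed without SNc 8 (adjusted p = 0.0447) and with array weights (adjusted p = 0.0384).

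The other ATPases measured were Psmc1, Psmc2, Psmc4 and Psmc5, and their differences ran from -0.01 to 0.24. Psmc1, which helps to open the gate of the core, was 958 ± 107 in SNc and 812 ± 112 in VTA (difference 0.24, SE 0.13, adjusted p = 0.369). The ATPases form a ring of fixed composition, but Psmc4, with 187 ± 36.0 in SNc and 187 ± 22.9 in VTA, differed by -0.01 where Psmc3 differed by 0.53. Whether these subunits differ from each other was not tested.

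Of the cap subunits outside the ring, Psmd11, a lid subunit, was 511 ± 102 in SNc and 423 ± 109 in VTA (difference 0.28, SE 0.17). Psmd2, a large scaffold subunit, was 1049 ± 274 and 901 ± 206 (difference 0.20, SE 0.19). SNc 7 was the lowest of all arrays for Psmd2 at 594, below every VTA array. Psmd1, Psmd4, Psmd10 and Psmd13 lay between -0.05 and 0.13. Psmd4 is a ubiquitin receptor, and Psmd10, or gankyrin, helps to assemble the cap and is not part of the finished particle.

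**Figure D3:**
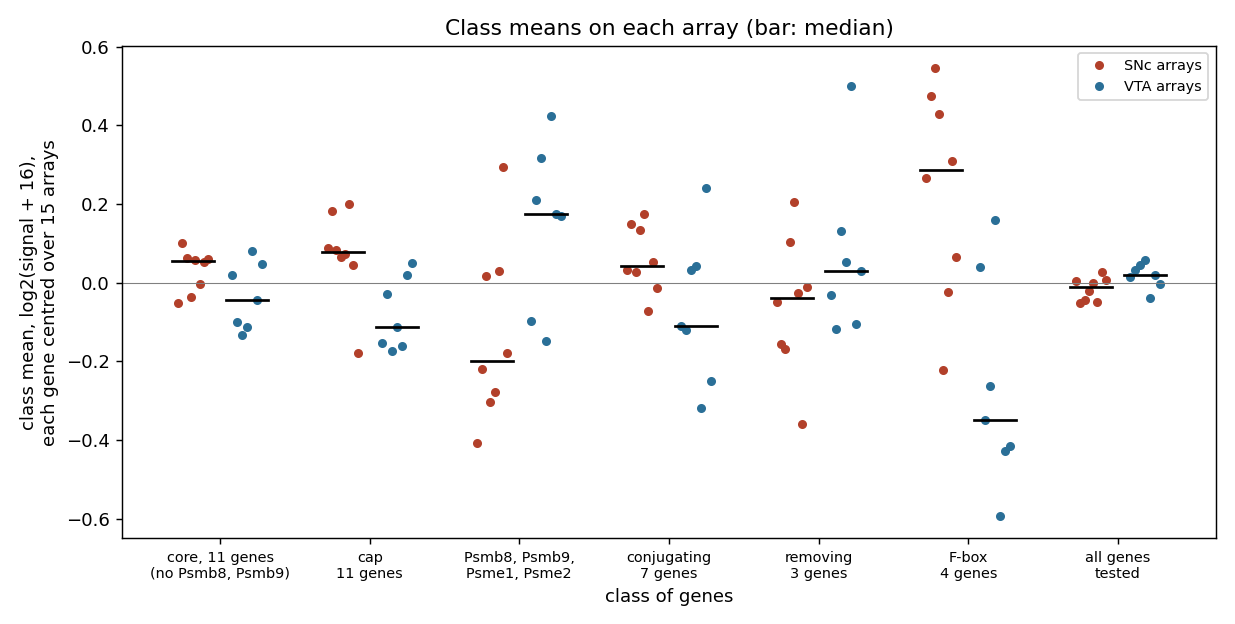
Mean of each class on each array, on the log2(signal + 16) scale with every gene centred over the 15 arrays; points are arrays, bars are medians of the 8 SNc or 7 VTA arrays. SNc 8 stands below the other SNc arrays for the cap. The F-box class separates the medians of the regions most, at 0.29 in SNc and -0.35 in VTA. It has 4 genes and includes both members past the threshold, Fbxo21 and Fbxo2. Its other genes, Fbxo22 and Fbxo38, differed by 0.22 and -0.23.

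On single arrays the cap mean lay between 0.04 and 0.20 in the SNc arrays other than SNc 8, which was at -0.18, and between -0.17 and 0.05 in VTA. The core mean without Psmb8 and Psmb9 ran from -0.05 to 0.10 in SNc and from -0.13 to 0.08 in VTA, so the regions overlapped. The mean over all genes tested ran from -0.05 to 0.03 in SNc and from -0.04 to 0.06 in VTA.

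Before the cap, ubiquitin is handed on by conjugating enzymes. Of 11 Ube2 genes 7 were tested and 0 passed. Their median difference was 0.16, with 6 positive and 1 negative, beside 44.4% positive among all genes tested. The 6 include Ube2q2 at 0.006. On single arrays the mean of the 7 ran from -0.07 to 0.17 in SNc and from -0.32 to 0.24 in VTA, so the regions overlapped. Ube2a, an enzyme that also marks chromatin and DNA repair proteins, was 267 ± 63.7 in SNc and 216 ± 45.3 in VTA (difference 0.28, SE 0.16, adjusted p = 0.434). Its close relative Ube2b differed by 0.12, with 3 probe sets between 0.11 and 0.12. Ube2j2, an enzyme of the endoplasmic reticulum membrane that serves disposal of misfolded proteins, was 483 ± 120 and 430 ± 113 (difference 0.16, SE 0.18). Ube2d2, Ube2e3, Ube2g1 and Ube2q2 lay between -0.01 and 0.18 at mean signals from 27.9 to 49.5, near the filter.

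Ube2q2 and Fbxo22 are direct neighbours in the rat gene table, and their differences were 0.006 and 0.22. The prefix Uba matched Ubac2 and Ubald1, which carry ubiquitin-associated or similar domains and are not activating enzymes, so the activating step itself was not measured. Ubac2 ran from 33.7 to 240 in SNc and from 18.4 to 246 in VTA, and Ubald1 differed by 0.25 (SE 0.23). With a difference of 0.31 and an SE of 0.39, Ubac2 had a 95% interval from -0.52 to 1.13, which leaves its direction unknown.

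Among the members, ubiquitin removal was measured through 3 Usp genes. All had negative differences, with a median of -0.09, and 0 passed, where 44.4% of all genes tested were positive. Outside the members, the removing enzymes Uchl1 and Stambp differed by 0.42 and -0.31, neither past the threshold. Usp19, a protease of which some forms sit in the endoplasmic reticulum membrane, was 196 ± 28.5 in SNc and 227 ± 29.1 in VTA. Of the 8 SNc arrays, 4 lay below every VTA array, and the difference was -0.20 (SE 0.13, adjusted p = 0.486). Usp40 differed by -0.09 (SE 0.21) and ranged from 32.1 to 140 within SNc, wider than the 56.2 to 103 of VTA. Usp37 differed by -0.08. The class median turned positive, to 0.003 with median centring and to 0.006 without VTA 5 and VTA 8.

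Both members past the threshold were F-box proteins. An F-box protein is the part of an SCF ligase that binds the target, so each one directs ubiquitin to its own set of proteins. Of 5 F-box members 4 were tested, and 2 passed, beside 2.18% of all genes tested, or 1.03% for genes higher in SNc. The class is singled out here by these same 2 calls. Its other tested genes, Fbxo22 and Fbxo38, had differences of opposite sign.

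Fbxo21 had signals from 39.1 to 104 in SNc, with a median of 63.95, and from 9.16 to 35.3 in VTA, with a median of 14.2. Every SNc array was above every VTA array, and within VTA the values fell into 3 arrays near the SNc range, VTA 1, VTA 3 and VTA 4, and 4 lower ones. The means were 65.8 ± 23.4 and 21.2 ± 12.0, the latter under the filter level of 26.3, so the gene was tested through its SNc signal. It was 2.22-fold higher in SNc by the fit (log2 difference 1.15, SE 0.21, adjusted p = 0.00513). The size depends on the offset, with 1.70 at an offset of 1 and 0.60 at 64, while the adjusted p ran from 0.00243 to 0.0313 over 26 alternatives. With the filter at 60% the gene was not tested.

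Fbxo2, a brain-enriched F-box protein that binds sugar chains of misfolded glycoproteins, had signals from 474 to 1237 in SNc, with a median of 867, and from 300.5 to 575 in VTA, with a median of 522. Of the SNc arrays 7 lay above every VTA array. SNc 5 was the exception, at the level of the VTA arrays. Fbxo2 was 1.78-fold higher in SNc, at 896 ± 244 against 489 ± 103 (log2 difference 0.83, SE 0.19, adjusted p = 0.0321). The call was lost without any of SNc 1, SNc 2, SNc 3, SNc 4, VTA 2, VTA 3, VTA 5 or VTA 6, with adjusted p reaching 0.0706. It was also lost without VTA 5 and VTA 8 together (adjusted p = 0.0696) and with an offset of 1 (adjusted p = 0.0517). The difference itself stayed between 0.72 and 0.95.

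Fbxo22 and Fbxo38 did not pass, with differences of 0.22 (SE 0.22) and -0.23 (SE 0.20), and their intervals reached from -0.24 to 0.68 and from -0.64 to 0.18. A second probe set of Fbxo38 gave 0.02. Each of Fbxo2 and Fbxo21 rests on 1 probe set, so no second measurement of either gene stands beside it. Some GABA neuron markers were also higher in SNc. The summed signal of Gad1, Gad2, Slc32a1 and Pvalb was 909 to 1848 in SNc and 551 to 1022 in VTA, and Gad1 and Pvalb passed the threshold, with differences of 1.45 and 1.34. Gad2 differed by 0.23 (adjusted p = 0.723) and Slc32a1 by 0.07 (adjusted p = 0.901). The part of these markers in the difference of the F-box genes was not tested.

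**Figure D4:**
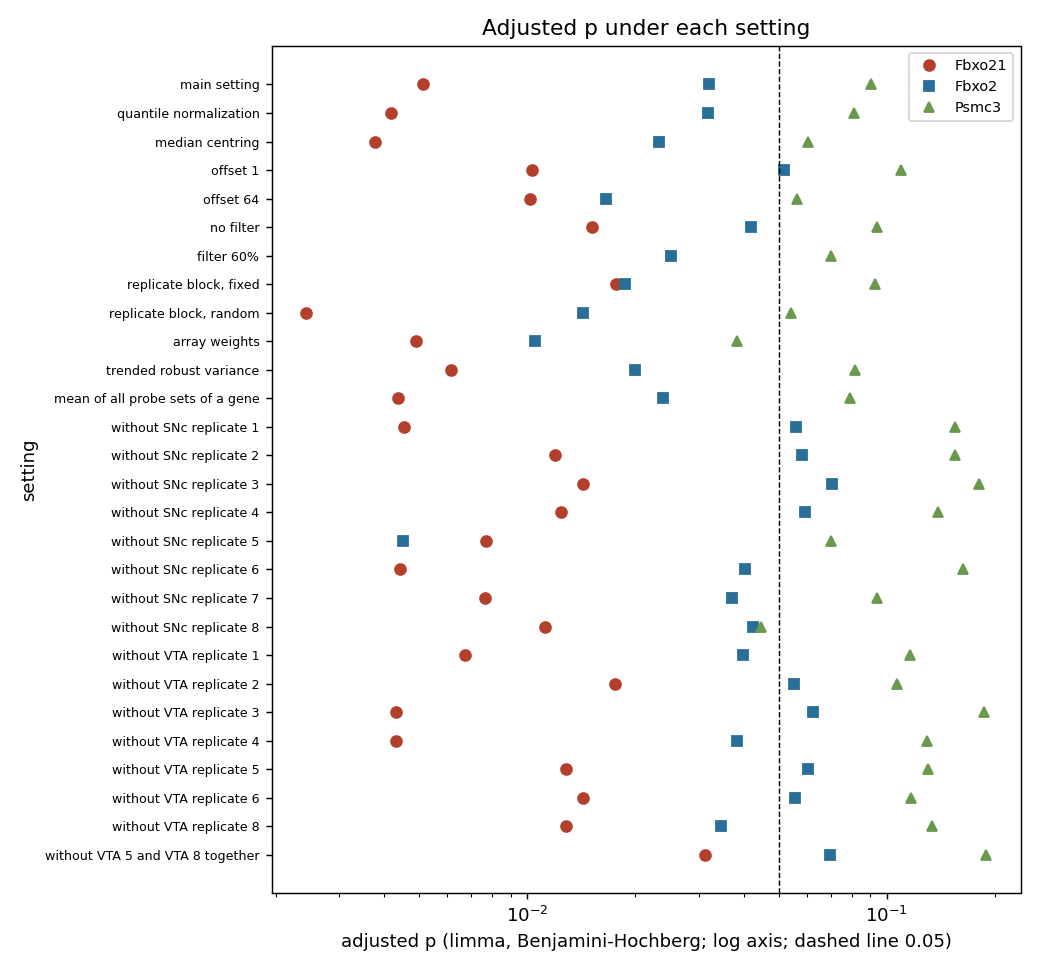
Adjusted p of Fbxo21, Fbxo2 and Psmc3 (symbols, log axis) under the main setting and each alternative, with a dashed line at 0.05. Fbxo21 stays below the line wherever it was tested, Fbxo2 crosses it in 10 of 27 alternatives, and Psmc3 lies below it in 2.

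A wider list of genes related to the pathway, not all of them ubiquitin genes, had 31 genes on the array that the prefixes do not catch. Of the 31, 26 were tested. Of the 26 tested, 15 were positive and 11 negative, with a median of 0.06, and 1 passed, higher in VTA. This is 3.85% of the list, beside 2.18% of all genes, and without VTA 5 and VTA 8 the count was 0. That gene was Mdm2, the ligase that marks p53, at 110 ± 23.7 in SNc and 167 ± 9.18 in VTA. Its SNc arrays, from 65.0 to 137, all lay below its VTA arrays, from 153 to 183, a lack of overlap seen in 0.871% of all genes. The difference was -0.56 (SE 0.14, adjusted p = 0.0443). The call was lost in 18 of 27 alternatives, among them the loss of any single array except SNc 5, SNc 7 and SNc 8, and when its probe sets were averaged the difference was -0.20.

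Uchl1, a neuronal enzyme that frees ubiquitin and has been studied in parkinsonism, was 3642 ± 599 in SNc and 2698 ± 325 in VTA. Of the SNc arrays, 5 lay above every VTA array, and the difference of 0.42 (SE 0.14) missed the threshold (adjusted p = 0.125). Park7, which is mutated in a recessive form of parkinsonism, was 1266 ± 287 and 932 ± 197 (difference 0.43, SE 0.17, adjusted p = 0.221). Nedd8, the ubiquitin-like protein that switches on the ligases which carry F-box proteins, differed by -0.09 (SE 0.13).

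Probe sets of the same gene gave a further view of the members. Of 18 members with several tested probe sets, 7 had the same sign in all and 11 did not. Of the 26 other probe sets 0 passed the threshold in limma. An unadjusted p under 0.05 was reached by 3 of them, with differences of -0.48 for Psma1, 0.44 for Psmd1 and -0.51 for Psme1, named here after their values were seen. Psmd1 had the widest spread among its 4 probe sets, from -0.32 to 0.44. Many such pairs come from the same transcript sequence, so they are not independent measurements. Psma2, Psmb2, Psmb9, Psme1 and Ube2b are among those whose probe sets share a sign.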

How the data were processed

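Laser-captured SNc and VTA neurons were profiled on a rat array. The deposited values are the authors' intensity of each probe set on a linear scale, and all 15 arrays have a 2% trimmed mean of about 150.2. The upstream software, background correction and amplification were not given in the sources used here. The number of arrays limits the precision. Leaving out 59 control probe sets kept 8740, of which 7006 had 1 symbol, 308 several and 1426 none. The 40% with the lowest mean log2(intensity + 16) were dropped, and 5244 were fitted with limma 3.58.1 in R 4.3.3 (lmFit, eBayes, two-sided, Benjamini-Hochberg). The procedure was tested on simulated data. Classes are described by counts and medians, with no test. Genes given in full were members with an adjusted or unadjusted p under 0.05, the 2 with the smallest p in each class, and the catalytic, immunoproteasome and PA28 subunits. From the wider list they were those past the threshold, the 3 with the smallest p, Ubb, Uchl1, Nfe2l1 and Nedd8, where tested. Other members were picked out after their values were seen. Members and lists were chosen with earlier results of these data known. Alternatives were other normalizations (quantile, median centring), offsets (1, 64) and filters (none, 60%), the replicate number as a block, array weights, a trended robust variance, averaged probe sets, thresholds of 0.01 and 0.10, and left-out arrays.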

Additional observations from a re-analysis of the deposited data

Results flagged for a closer look

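Among 24 genes and 6 class means, each looked at in SNc and in VTA for 1 array far from the rest of its region, 3 class means stood out. Chance flags about 1 in 20 groups, and with 60 looked at, 3 is the number that rate gives. The groups share arrays and genes, and all 3 flags were class means, so that rate is only a rough guide. The cause of the flags was not tested. SNc 8 had a mean of -0.18 for the cap subunits, on the centred log2 scale, where the other SNc arrays lay between 0.04 and 0.20. VTA 6 had -0.27 for the activators Psme1, Psme2 and Psme4, with the other VTA arrays between 0.06 and 0.22. Of these genes only Psme4 was low on VTA 6, with a signal of 37.0 where the other VTA arrays ran from 75.8 to 110.5. Psme1 at 759 and Psme2 at 131 lay within the range of the other VTA arrays. VTA 5 had 0.50 for Usp19, Usp37 and Usp40, with the others between -0.12 and 0.13. VTA 5 is also the array with the lowest median correlation with the rest.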

How the results depend on the processing

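The count of 2 members past the threshold was 1 with an offset of 1, a filter of 60%, a threshold of 0.01 or without VTA 5 and VTA 8, and from 1 to 3 when single arrays were left out. The count of 104 probe sets was 60 with an offset of 1, 184 with array weights, 40 at a threshold of 0.01, 208 at 0.10, and from 56 to 115 without single arrays. Of the 104, 42.3% were higher in SNc, and 64.4% after median centring, which moved the median of all genes from -0.04 to 0.06. The wider list's count of 1 was 0 with quantile normalization, median centring, an offset of 1, the fixed replicate block, the mean of all probe sets, a threshold of 0.01, or without VTA 5 and VTA 8, and from 0 to 1 without single arrays. The median of the F-box class was 0.22 with a filter of 60%, where Fbxo21 was not tested. Of the 24 genes given in full, 5 turned sign under some alternative, all with differences within 0.09 of 0: with median centring Psme2 was 0.0046, Usp40 0.0030, Psmb5 0.064 and Nedd8 0.0063; with the mean of all probe sets Psma7 was -0.064 and Psmb5 0.076; Usp40 was 0.048 with the fixed replicate block, 0.0062 without VTA 5 and VTA 8, and from -0.19 to 0.048 without single arrays; Psmb5 was from -0.070 to 0.022. The cause of these changes was not tested.

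Same-numbered arrays correlated between 0.04 and 0.25 in their deviations from the region means, over 0.1 in 5 of 7 pairs. Of the 7 VTA arrays, 3 correlated best with their own number. Same-numbered arrays may thus share a source, which the labels do not state. The main fit did not use the numbers as pairs, and fits with the number as a block are given beside it. With the replicate number as a fixed block, 99 probe sets and 2 members passed, and with a random replicate block 153 and 2. Mdm2 lost its call in the fixed block (adjusted p = 0.0698). Dim members limit the account: 5 of 48 were not tested, and differences of genes near a signal of 26.3 depend on the offset.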
